A study of Mus musculus with 12 samples.

Results

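The WNT ligands, their receptors and their antagonists were measured in TM3 cells, an established line derived from Leydig cells of the immature mouse testis, after exposure to methoxyacetic acid (MAA). Members were chosen by gene symbol: every gene whose symbol starts with Wnt, Fzd, Sfrp or Dkk followed by a digit, together with Wif1, Lef1, Tcf7, Axin2, Lrp5 and Lrp6. The name column of the scanner files holds accessions, in which 0 probes matched those symbols as written, so symbols were reached through RefSeq accessions. This gave 51 probes of 42 genes, among 41174 probes on the array and 15972 genes named in this way, namely 22 probes of 19 ligands, 14 probes of 11 receptors and co-receptors, 11 probes of 9 secreted antagonists and 4 probes of the 3 nuclear or feedback genes Tcf7, Lef1 and Axin2. Probes known only by other kinds of accession were not named here, so the list may lack probes of these genes.

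The series compared MAA, the active metabolite of the solvent ethylene glycol monomethyl ether, with culture medium alone. TM3 cultures received MAA at 5 mM or 1 mM, and the exposure lasted 3, 8 or 24 h. Each of the 6 conditions was hybridised on 2 arrays of 2 colours against untreated TM3 cells of the same time, with RNA pooled from 3 cultures. Replicate 1 carried MAA in the green dye and replicate 2 carried MAA from a separate pool in the red dye, so pool and dye orientation cannot be told apart between the 2 arrays of a condition. Both concentrations at a given time were set against untreated cells of that time. The labels do not say whether the same control RNA served both, so their ratios may not be independent of each other. All values come from a single cell line, and in such bulk RNA fewer cells carrying a transcript and less transcript per cell cannot be told apart.

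WNT proteins are secreted, lipid-modified ligands that bind Frizzled receptors (Fzd) together with the co-receptors Lrp5 and Lrp6. In the canonical branch this stops the destruction of beta-catenin, which then acts in the nucleus with TCF/LEF factors such as Tcf7 and Lef1, while Axin2 is transcribed in response and returns the pathway towards its resting state. Sfrp proteins and Wif1 bind the ligands themselves and Dkk proteins act on the co-receptors, and in the developing gonad Wnt4 is known as a gene that opposes testis formation.

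Promoter sequence was drawn from RefSeq for members with a call, to set those called up in any condition beside those called down. The RefSeq promoter table held 28 of the 42 member genes. The 250 bases before the annotated start are shown 5′ to 3′ for Wnt6, Wnt4 and Axin2, which rose, and for Fzd1 and Sfrp2, which fell. Capitals mark the GC box GGGCGG, searched on both strands so that CCGCCC is also marked, and the TCF/LEF core letters CTTTGA or CTTTGT and their reverse complements TCAAAG and ACAAAG.
Wnt6 (GRCm38.p6, chr1:74771642-74771891, plus strand): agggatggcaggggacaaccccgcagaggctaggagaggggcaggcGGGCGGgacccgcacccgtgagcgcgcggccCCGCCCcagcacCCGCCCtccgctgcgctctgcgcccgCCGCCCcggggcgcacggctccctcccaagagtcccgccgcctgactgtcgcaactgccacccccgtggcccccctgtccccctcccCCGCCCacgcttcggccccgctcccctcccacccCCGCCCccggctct
Wnt4 (GRCm38.p6, chr4:137277385-137277634, plus strand): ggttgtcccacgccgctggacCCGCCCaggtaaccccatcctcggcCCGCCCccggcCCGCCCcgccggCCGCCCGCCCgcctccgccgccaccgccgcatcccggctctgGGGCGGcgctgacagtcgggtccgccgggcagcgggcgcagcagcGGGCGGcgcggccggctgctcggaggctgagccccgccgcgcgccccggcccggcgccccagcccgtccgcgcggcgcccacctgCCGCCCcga
Axin2 (GRCm38.p6, chr11:108920099-108920348, plus strand): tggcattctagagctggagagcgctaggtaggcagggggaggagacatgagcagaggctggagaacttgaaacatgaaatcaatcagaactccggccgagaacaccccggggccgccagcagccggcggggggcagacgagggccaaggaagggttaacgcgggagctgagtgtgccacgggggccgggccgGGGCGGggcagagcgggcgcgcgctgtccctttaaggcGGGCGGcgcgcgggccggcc
Fzd1 (GRCm38.p6, chr5:4758217-4758466, minus strand): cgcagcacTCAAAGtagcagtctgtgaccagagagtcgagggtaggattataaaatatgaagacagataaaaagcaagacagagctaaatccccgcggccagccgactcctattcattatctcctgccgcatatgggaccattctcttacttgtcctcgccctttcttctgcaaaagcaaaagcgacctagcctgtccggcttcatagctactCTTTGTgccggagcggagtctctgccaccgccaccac
Sfrp2 (GRCm38.p6, chr3:83766071-83766320, plus strand): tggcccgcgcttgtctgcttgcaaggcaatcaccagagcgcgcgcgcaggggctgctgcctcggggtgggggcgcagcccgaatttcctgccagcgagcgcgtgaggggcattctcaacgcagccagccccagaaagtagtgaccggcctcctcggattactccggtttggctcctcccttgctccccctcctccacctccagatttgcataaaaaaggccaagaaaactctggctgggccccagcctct

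Wnt6 held 6 GC boxes in this window, Wnt4 held 8 and Axin2 held 2, whereas Fzd1 and Sfrp2 held 0. Fzd1 held 2 TCF/LEF cores and the other 4 windows held none. GC content was 79.6% for Wnt6, 85.2% for Wnt4, 69.2% for Axin2, 51.2% for Fzd1 and 63.6% for Sfrp2, beside a median of 52.4% over all 32851 promoters. Counted over every listed start of a gene, a GC box was present in all 8 of the genes with a promoter that were called up in any condition. It was present in 0 of the 3 called down (Fzd1, Sfrp2 and Wnt10b) and in 14 of the 17 that were not called. A GC box occurred in 35.4% of all 27025 genes and in 32.7% of all promoters of this length. The TCF/LEF core was present in 2 of the 8 genes called up, in 1 of the 3 called down and in 5 of the 17 not called, against 30.8% of all genes and 27.6% of all promoters. The letters were counted in these windows only, and a match is a description of sequence.

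Between 61.5% and 70.4% of all probes were well above background in the control channel of an array, by the flag of the scanner software, and between 62.2% and 69.3% in the MAA channel. Of the listed Leydig cell markers, Star, Cyp17a1 and Insl3 were above background in the untreated channel of all 12 arrays, while Cyp11a1, Hsd3b1, Hsd3b6 and Lhcgr were above it on 0. Nr5a1 was above it on 8 arrays and Hsd17b3 on 1. Of 6 Sertoli cell markers Wt1, Sox9 and Rhox5 were above it on all 12 arrays, Gata1 on 6, and Amh and Fshr on 2 each. On all 12 arrays 3 of 6 germ cell genes and 2 of 4 myoid genes were above it. A gene with several probes was counted by its best probe. Sox9 probe A_51_P451606 was above it on 3 arrays, and Prm1 probes A_52_P533280 and A_52_P533287 on 1 and 0. Of 4 endothelial genes 3 were above it on 0 arrays and Tek on 8, and the macrophage markers Adgre1 and Ptprc were above it on 0. The part of these markers in the WNT values was not tested.

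Called changes of the WNT genes fell in all 4 roles. A probe was called when its unadjusted p in limma was below 0.005 and its change exceeded 2-fold at 5 mM or 1.5-fold at 1 mM. By this rule 14 of the 51 probes (27.5%), of 13 genes, were called in at least 1 of the 6 conditions, beside 12.8% of all probes. At 5 mM 10 probes (19.6%) were called at 1 or more times, beside 10.1% of all probes, and at 1 mM 7 probes (13.7%), beside 6.87%. Both concentrations shared 3 of these probes, and 37 were never called. The genes were 6 ligands (Wnt4, Wnt6, Wnt7a, Wnt10a, Wnt10b and Wnt11), the receptor Fzd1, the antagonists Dkk3, Sfrp2 and Wif1, and all 3 nuclear or feedback genes. Shares of all probes, here and below, include probes without a RefSeq name, from which no member could come. The share over the 22072 named probes alone is not given.

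At 5 mM and 3 h, 0 members were called up and 2 (3.92%) were called down, while 2.02% of all probes were called up and 1.74% down. At 5 mM and 8 h, 3 members rose (5.88%) and 2 fell (3.92%), against 3.06% and 2.49% of all probes. At 5 mM and 24 h, 6 members rose (11.8%) and 1 fell (1.96%), against 3.85% and 1.77% of all probes. The 0 called up at 3 h lay near the 2.02% share of all probes. At an unadjusted p below 0.05 alone, limma had 4 members higher at 3 h. The members called down were Fzd1 and Wnt10b at 3 h, Fzd1 and Sfrp2 at 8 h and Sfrp2 at 24 h.

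At 1 mM the calls were all upward. No member was called at 3 h, when 1.32% of all probes were called up and 0.627% down, and at an unadjusted p below 0.05 alone limma had 4 members higher and 4 lower. With replicate 1 of this condition left out 2 members were called, and with replicate 2 left out 1 was called. At 8 h 2 members rose (3.92%) and 0 fell, against 1.72% and 0.656%. At 24 h 6 members rose (11.8%) and 0 fell, against 3.26% and 1.41%. At an unadjusted p below 0.05 alone limma had 3 members lower at 8 h and 1 lower at 24 h. The median log2 MAA/control of the 51 probes lay between -0.09 at 5 mM for 3 h and 0.17 at 5 mM for 24 h, and that of all probes in these conditions was -0.10 and 0.03. In each condition 18 to 22 of the 51 probes had neither channel well above background, so their ratios carry little information.

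**Figure D1:**
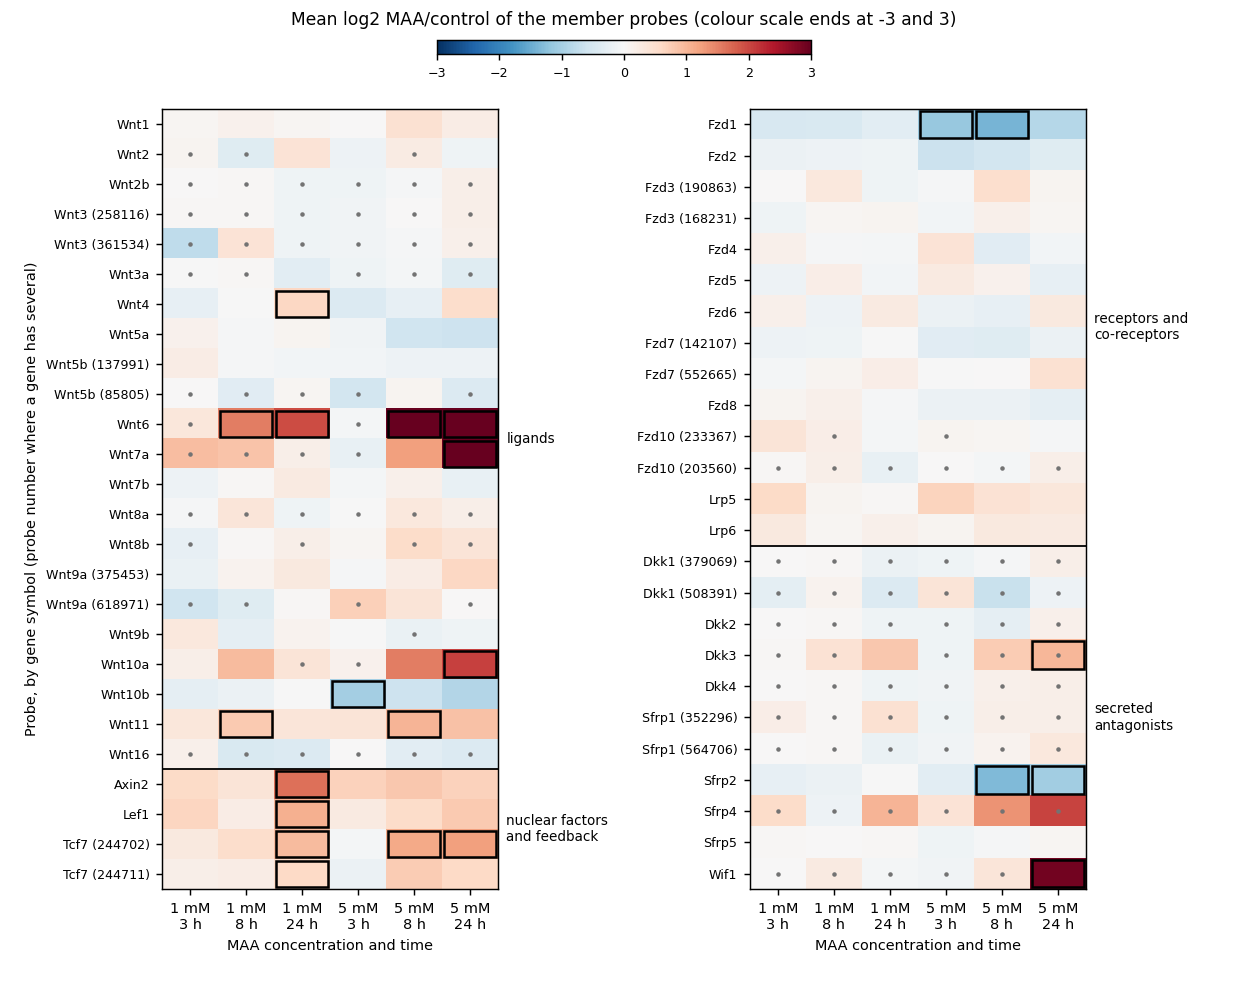
Mean log2 MAA/control of all 51 member probes (rows, by role) in the 6 conditions (columns), with black frames around values that were called and grey dots where neither channel was well above background on either array. At 5 mM, framed reds include Wnt6 at 8 and 24 h and Wnt7a and Wif1 at 24 h, the framed blues are Fzd1, Sfrp2 and Wnt10b, and all 4 nuclear and feedback probes are framed at 1 mM for 24 h.

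Among the ligands, Wnt6 rose at 8 and 24 h at both concentrations. Wnt6 belongs to the ligands that epithelia and their neighbouring mesenchyme use to signal to each other. At 5 mM its log2 MAA/control was 0.03 and -0.16 on the 2 arrays at 3 h, 3.73 and 2.71 at 8 h, and 3.30 and 2.90 at 24 h. At 1 mM the values were 1.04 and -0.37 at 3 h, 1.57 and 1.49 at 8 h, and 1.76 and 2.18 at 24 h. All 8 arrays from 8 h onward were thus positive, whereas the 3 h arrays fell on both sides of 0.

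The untreated level of Wnt6 was not well above background on any of the 12 arrays, so its fold changes have only a lower limit, the MAA level over the lowest signal measured above background on the same arrays. At 5 mM Wnt6 was at least 2.73-fold higher at 8 h and at least 2.77-fold higher at 24 h, with limma adjusted p = 0.00032 and 0.00043 over all probes. At 1 mM the limits were 1.16-fold and 1.01-fold with limma adjusted p = 0.0455 and 0.0118, and the MAA channel was above background on 1 of the 2 arrays at each time. The increase at 1 mM and 8 h lost its call when either array of that condition was left out, and the one at 24 h did so without replicate 2.

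Wnt7a and Wnt10a rose in 5 mM MAA at 24 h. Wnt7a directs female reproductive tract patterning, and Wnt10a acts in skin and tooth development. Wnt7a had log2 ratios of 0.56 and -0.997 at 3 h, 0.86 and 1.58 at 8 h, and 2.09 and 3.92 at 24 h at 5 mM, and of 1.05 and 0.82, 1.23 and 0.51, and 0.30 and 0.07 at 1 mM in the same order of times. It was called at 24 h only, with a mean of 3.00 ± 0.48 (SE, n = 2 arrays, limma adjusted p = 0.00259), and its control was above background on 1 of these 2 arrays. The arrays of that condition lay above all others of this probe, yet they differed from each other by more than the standard error.

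Wnt10a read -0.17 and 0.42 at 3 h, 1.42 and 1.65 at 8 h, and 1.13 and 2.96 at 24 h at 5 mM. At 1 mM it read 0.17 on the single array kept at 3 h, 0.61 and 1.29 at 8 h, and 0.10 and 0.66 at 24 h; the other 3 h spot was an outlier and was dropped. Its call at 5 mM for 24 h rested on a mean of 2.05 ± 0.42 (SE, n = 2 arrays, limma adjusted p = 0.011), with the control above background on 1 array. Without replicate 2 of that condition both calls were lost, at 2.09 for Wnt7a and 1.13 for Wnt10a on the remaining array.

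Wnt11 and Wnt4 were above background on every array in both channels, and each rose moderately. Wnt11 acts largely outside the beta-catenin branch, in cell movement and kidney branching. Its log2 ratios at 5 mM were 0.30 and 0.50 at 3 h, 0.93 and 1.12 at 8 h, and 0.89 and 0.87 at 24 h, and at 1 mM they were 0.10 and 0.60, 0.69 and 0.88, and 0.38 and 0.34. All 12 arrays were therefore positive, with the 8 h arrays highest at each concentration. Wnt11 was called at 8 h, 2.03-fold higher at 5 mM (log2 1.02 ± 0.12 SE, limma adjusted p = 0.000573) and 1.72-fold higher at 1 mM (0.78 ± 0.12 SE, adjusted p = 0.0139). The 5 mM call was lost at 0.93 without replicate 2 of that condition, and the 1 mM call at 0.69 without replicate 2 of its own. Centring each array on its median and taking slide as a block also took the 5 mM value just below 2-fold.

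Wnt4 changed direction with time. It read -0.42 and -0.42 at 3 h, -0.29 and -0.18 at 8 h, and 0.47 and 0.59 at 24 h at 5 mM, and -0.32 and -0.20, -0.08 and 0.07, and 0.49 and 0.77 at 1 mM. The 24 h arrays of both concentrations were positive and did not overlap with the 3 h arrays, which were negative. The call was at 1 mM for 24 h, 1.55-fold higher (log2 0.63 ± 0.08 SE, limma adjusted p = 0.00422), while the 5 mM mean of 0.53 ± 0.08 did not reach the 2-fold threshold at that concentration. The 1 mM call was lost without replicate 2 of that condition, whose fellow array read 0.49.

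The untreated levels of both genes moved with time in culture, and by more than MAA moved them. On a scale of log2 signal equalised between arrays, with the value of the 5 mM arrays first and the 1 mM arrays second, Wnt4 in untreated cells was 9.92 and 9.95 at 3 h, 9.69 and 9.69 at 8 h, and 7.45 and 7.49 at 24 h. Wnt11 in untreated cells went the other way, from 5.67 and 5.30 at 3 h to 6.40 and 6.32 at 8 h and to 8.39 and 8.30 at 24 h. So the higher Wnt4 ratios at 24 h stood against a control lower than at 3 h, and the Wnt11 ratios at 24 h against a control higher than at 3 h. These level changes between times were not tested.

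Wnt10b, a ligand known for holding back fat cell formation, was the only ligand called down. Its log2 ratios at 5 mM were -0.52 and -1.51 at 3 h, -0.65 and -0.57 at 8 h, and -0.89 and -0.89 at 24 h. At 1 mM they were -0.16 and -0.40 at 3 h, -0.16 and -0.20 at 8 h, and -0.05 and 0.05 at 24 h. Every 5 mM array lay below every 1 mM array, but the tested difference between concentrations did not pass at 3, 8 or 24 h (limma adjusted p = 0.233, 0.441 and 0.0987). The call was at 5 mM for 3 h (mean -1.02 ± 0.19 SE, limma adjusted p = 0.00688), where the 2 arrays differed most, and it was lost without replicate 2 of that condition, whose fellow array read -0.52. On that replicate 2 array the MAA channel was not well above background. Centring each array on its median also took the call below 2-fold, at -0.91.

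The remaining 13 ligands had 0 calls. Including the dimmer probe of genes with several, 16 ligand probes were never called, of which 6 (Wnt1, Wnt5a, Wnt5b, Wnt7b, Wnt9a and Wnt9b) were well above background in either channel on at least 6 arrays. Their condition means ran from -0.63, for Wnt5a at 5 mM and 24 h, to 0.63, for probe A_51_P375453 of Wnt9a at 5 mM and 24 h. Wnt5a, the main ligand of the beta-catenin-independent branch, had log2 ratios of -0.09 and -0.10 at 3 h, -0.51 and -0.69 at 8 h, and -0.76 and -0.49 at 24 h at 5 mM, with 1 mM arrays between -0.19 and 0.15. Wnt2b, Wnt3 with both of its probes, Wnt8a and Wnt16 were well above background in no channel of any array.

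Of the receptors, only Fzd1 was called, and it was lower on all 12 arrays. Fzd1 is a Frizzled of the beta-catenin branch. At 5 mM its log2 ratios were -1.06 and -1.22 at 3 h, -1.26 and -1.51 at 8 h, and -0.72 and -0.97 at 24 h. At 1 mM they were -0.34 and -0.62 at 3 h, -0.36 and -0.56 at 8 h, and -0.22 and -0.44 at 24 h. The 2 concentrations did not overlap at any time, and at each concentration the 24 h mean was nearest to 0.

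Fzd1 fell 2.21-fold at 3 h and 2.62-fold at 8 h in 5 mM MAA (log2 -1.14 and -1.39, each ± 0.11 SE, limma adjusted p = 0.000363 and 0.000103). At 24 h the mean of -0.84 lay inside the 2-fold threshold. Its control signal ranged from 11308 to 29148 processed units over the 12 arrays, far from background and below saturation. Both calls were kept under all 21 alternatives tried, with values from -1.22 to -1.03 at 3 h and from -1.51 to -1.26 at 8 h.

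Fzd2, which like Fzd1 was lower on 12 of 12 arrays, had smaller ratios and was not called. At 5 mM it read -0.66 and -0.62 at 3 h, -0.62 and -0.48 at 8 h, and -0.43 and -0.32 at 24 h, and at 1 mM all 6 arrays lay between -0.19 and -0.11. The other 12 receptor probes, for Fzd3 to Fzd8, Fzd10 and the co-receptors Lrp5 and Lrp6, were not called either. Over the 11 uncalled receptor probes that were above background on at least 6 arrays, Fzd2 included, the condition means ran from -0.64 to 0.68. The upper end was Lrp5 at 5 mM and 3 h, where the arrays read 1.00 and 0.35. The 2 probes of Fzd7 differed in sign at 5 mM and 24 h, with 0.44 and 0.48 on the arrays for A_52_P552665 and -0.23 and -0.11 for A_51_P142107.

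Among the secreted antagonists, Sfrp2 fell and Wif1 rose. Sfrp2 is a soluble Frizzled-related protein that binds WNT ligands. At 5 mM its log2 ratios were -0.18 and -0.43 at 3 h, -1.27 and -1.36 at 8 h, and -1.13 and -0.96 at 24 h. At 1 mM they were -0.18 and -0.31 at 3 h, -0.09 and -0.27 at 8 h, and -0.07 and 0.04 at 24 h. The concentrations overlapped at 3 h and did not overlap at 8 and 24 h.

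Sfrp2 fell 2.49-fold at 8 h and 2.07-fold at 24 h in 5 mM MAA (log2 -1.32 and -1.05, each ± 0.09 SE, limma adjusted p = 4.59e-05 and 0.000139). Its call at 8 h was kept under all 21 alternatives, and the call at 24 h was lost under 1, at -0.96 without replicate 1. The untreated level of Sfrp2 on the equalised log2 scale, not tested between times, was 15.66 and 15.75 at 3 h, 15.91 and 15.79 at 8 h, and 17.01 and 16.76 at 24 h. In 5 mM MAA the corresponding level was 15.35 at 3 h, 14.59 at 8 h and 15.97 at 24 h.

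Wif1 encodes a secreted inhibitor that binds WNT proteins outside the cell. Its log2 ratios at 5 mM were -0.10 and -0.13 at 3 h, 0.54 and 0.19 at 8 h, and 2.72 and 3.07 at 24 h, while the 1 mM arrays lay between -0.36 and 0.40 at all times. Wif1 was thus raised in 1 of the 6 conditions. The untreated signal was below the background flag on all 12 arrays and the MAA signal was above it on the 2 arrays of 5 mM at 24 h, where Wif1 was at least 2.16-fold higher (limma adjusted p = 5.53e-05).

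Dkk3, which is the divergent member of the Dickkopf family, passed the call at 5 mM and 24 h with arrays at 0.65 and 1.36 and limma adjusted p = 0.0117. Neither channel of these 2 arrays was well above background, so no fold is given for it. Its other log2 ratios were -0.09 and -0.16 at 3 h and 0.92 and 0.58 at 8 h for 5 mM, and 0.42 and -0.33, 0.67 and 0.17, and 0.81 and 0.82 for 1 mM. The call was lost under 7 of 20 alternatives. Of the other antagonists, Dkk1, Dkk2, Dkk4, Sfrp1 and Sfrp4 were well above background in no channel of any array, and Sfrp5, with 6 control channels above it, had means between -0.13 and 0.05.

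At 1 mM and 24 h, 4 of the 4 probes of the nuclear and feedback genes were called up at the 1.5-fold threshold, beside 3.26% of all probes. In 5 mM MAA at 24 h, where the threshold was 2-fold, the means were 0.69 for Axin2, 0.78 for Lef1, and 1.24 and 0.60 for Tcf7. None of these probes differed between concentrations at 24 h (limma adjusted p = 0.076, 0.645, 0.615 and 0.996). Axin2, the scaffold of the beta-catenin destruction complex that the pathway itself induces, gave log2 ratios of 1.82 and 1.51 at 1 mM and 24 h. Its other 1 mM arrays read 0.84 and 0.33 at 3 h and 0.62 and 0.15 at 8 h. At 5 mM it read 0.81 and 0.58 at 3 h, 0.96 and 0.67 at 8 h, and 0.99 and 0.38 at 24 h. All 12 arrays were above 0, and the 2 arrays of 1 mM at 24 h were the highest.

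Axin2 was 3.17-fold higher at 1 mM and 24 h (log2 1.66 ± 0.20 SE, limma adjusted p = 0.00277), with the call kept under all 21 alternatives. The 5 mM means of 0.69, 0.82 and 0.69 stayed below the 2-fold threshold used at that concentration. The difference between concentrations at 24 h was -0.98 for 5 mM minus 1 mM, with a 95% interval from -1.62 to -0.33 and adjusted p = 0.076 in limma, so it did not pass the test. The untreated level of Axin2 on the equalised log2 scale, not tested between times, was 8.12 and 8.06 at 3 h and 7.32 and 7.26 at 24 h.

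Lef1, a nuclear partner of beta-catenin, was also above 0 on all 12 arrays. Its control channel was well above background on only 4 of them and its MAA channel on 9, so many of these ratios carry little information. Lef1 read 0.84 and 0.45 at 3 h, 0.03 and 0.42 at 8 h, and 0.87 and 1.25 at 24 h at 1 mM, and 0.36 and 0.16, 0.21 and 0.87, and 0.93 and 0.63 at 5 mM. The arrays of the 2 concentrations overlapped at 8 and 24 h. Lef1 was called at 1 mM for 24 h (1.06 ± 0.19 SE, limma adjusted p = 0.0134), where the control channel was above background on 1 of the 2 arrays. The call was lost without replicate 2 of that condition.

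Tcf7, which encodes the factor TCF1, was measured by 2 probes that moved alike at 24 h. Probe A_52_P244702 read 0.29 and -0.43 at 3 h, 1.11 and 1.15 at 8 h, and 1.37 and 1.11 at 24 h at 5 mM, and 0.50 and 0.09, 0.63 and 0.44, and 1.03 and 0.89 at 1 mM. Probe A_52_P244711 read -0.44 and 0.06, 0.72 and 0.82, and 0.50 and 0.70 at 5 mM, and 0.22 and 0.15, -0.04 and 0.47, and 0.53 and 0.68 at 1 mM. At 5 mM both probes were positive on every array from 8 h and on both sides of 0 at 3 h.

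Probe A_52_P244702 of Tcf7 was called at 8 h (2.19-fold) and 24 h (2.36-fold) in 5 mM MAA and at 24 h (1.94-fold) in 1 mM MAA, with limma adjusted p = 0.00187, 0.00133 and 0.0138. Probe A_52_P244711 was called at 1 mM for 24 h (1.52-fold, limma adjusted p = 0.0403), and this call was lost under 12 of 21 alternatives. Both 5 mM calls of A_52_P244702 were kept under all 21, and its 1 mM call was lost under 3. When 1 array of the 1 mM, 24 h condition was left out, the number of WNT members called there dropped from 6 to 4 without replicate 1 and to 1, Axin2, without replicate 2.

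**Figure D2:**
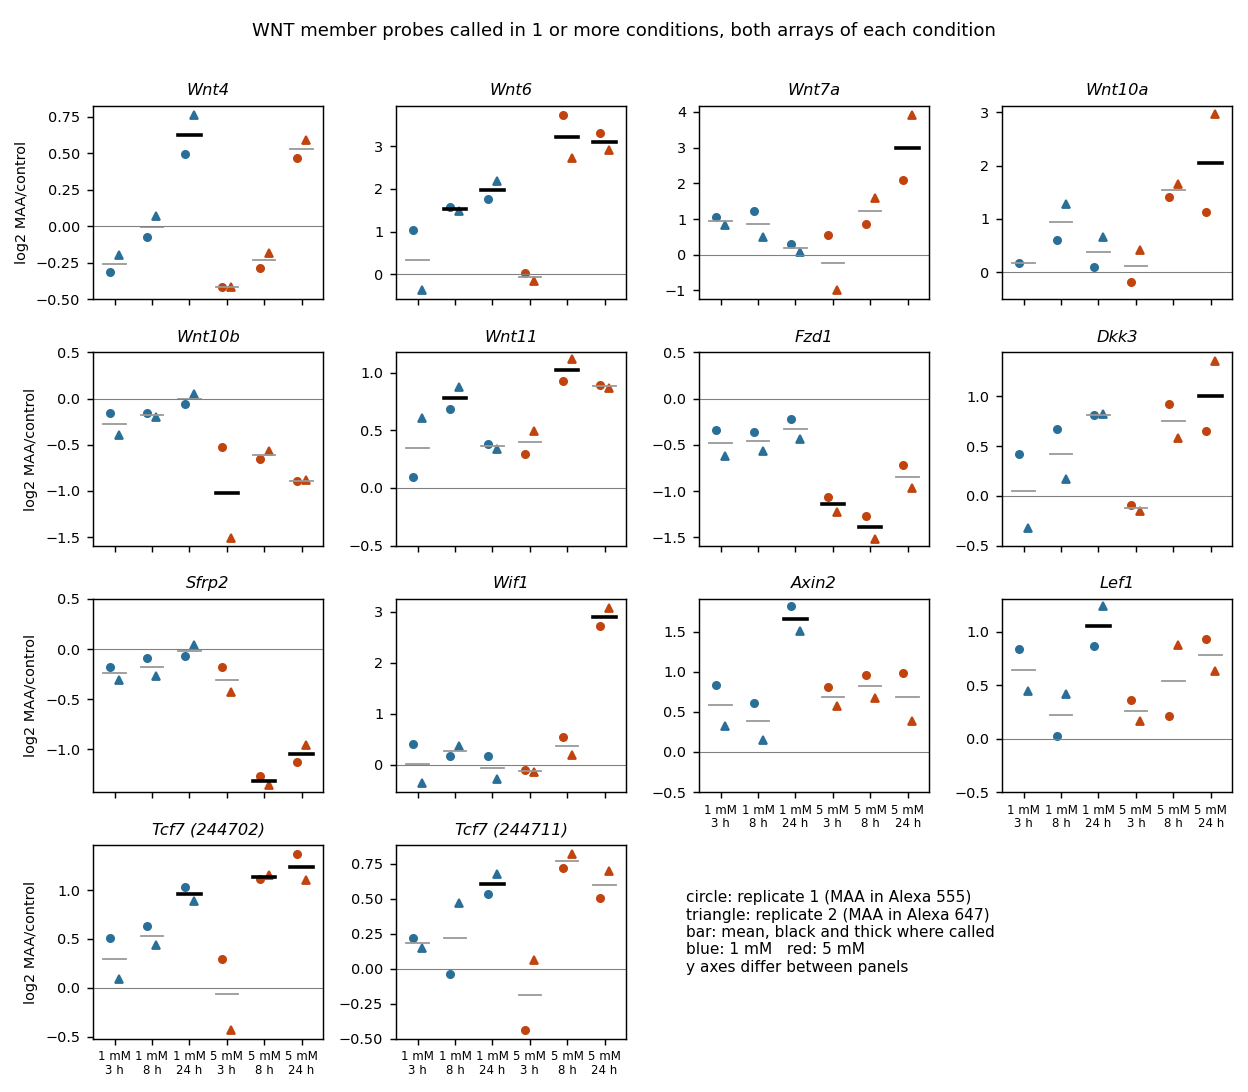
Log2 MAA/control (y axis, own range in each panel) of the 14 called member probes on both arrays of each condition (x axis), with circles for replicate 1, triangles for replicate 2 and bars for the mean, thick and black where called. Fzd1 lies below 0 on all 12 arrays, Axin2, Lef1 and Wnt11 lie above 0 on all 12, and Wnt4 passes from negative at 3 h to positive at 24 h at both concentrations. The Lef1 control was well above background on only 4 of the 12 arrays.

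The size of many of these changes depended on the processing. When the raw signals were instead corrected by normexp with an offset of 50 and normalised by loess, 15 of the 22 calls were lost and none changed direction. The mean for Wnt6 at 5 mM went from 3.22 to 0.61 at 8 h and to 0.46 at 24 h, and at 1 mM to 0.19 and 0.09. At 5 mM and 24 h Wif1 went from 2.90 to 0.31, Wnt7a from 3.00 to 0.59, Wnt10a from 2.05 to 0.37 and Dkk3 from 1.00 to 0.19, and at 3 h Wnt10b went from -1.02 to -0.12. At 5 mM these Wnt6 and Wif1 means lay below the lower limits of fold given for both genes, so those limits hold for the processed signals only.

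Genes above background on every array were also among those lost under this alternative. Wnt11 at 8 h went to 0.75 at 5 mM and to 0.55 at 1 mM, and Wnt4 at 1 mM and 24 h went to 0.35. At 1 mM and 24 h Lef1 went from 1.06 to 0.10 and the 2 Tcf7 probes to 0.58 and 0.16. The 7 calls kept were those of Fzd1 and Sfrp2, the 5 mM calls of Tcf7 and that of Axin2 at 1.08. Which step of this alternative moved the values was not tested.

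Differences between the 2 concentrations were tested directly, as contrasts in the same limma fit at adjusted p below 0.05. At 3 h 1 of 51 members differed, against 3.40% of all probes. At 8 h 4 of 51 differed, against 10.1%, and at 24 h 4 of 51 differed, against 8.41%. At each time the count of members lay near the share of all probes, so it is not read as a difference from the array. Where they passed, 5 mM was lower for Fzd1, Fzd2, Sfrp2 and Wnt5a, and it was higher for Wif1 and Wnt7a. After each array was centred on its median, 0, 2 and 2 members remained at these times, namely Sfrp2 and Fzd1 at 8 h and Sfrp2 and Wif1 at 24 h.

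Fzd2 was lower at 5 mM than at 1 mM by a log2 difference of -0.47 at 3 h (adjusted p = 0.0351 in limma) and of -0.40 at 8 h (adjusted p = 0.0289). Sfrp2 differed by -1.13 at 8 h and by -1.03 at 24 h (adjusted p = 0.00297 and 0.00422 in limma). Fzd1 differed by -0.93 at 8 h (limma adjusted p = 0.0132), while its differences of -0.67 at 3 h and -0.52 at 24 h had 95% intervals from -1.04 to -0.29 and from -0.89 to -0.14 and did not pass the adjusted test. The 2 Frizzled genes that were lower on all 12 arrays thus both differed between concentrations at 8 h.

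Wnt5a differed by -0.56 at 8 h and by -0.70 at 24 h (adjusted p = 0.0462 and 0.0248 in limma). Wif1 and Wnt7a passed at 24 h (limma adjusted p = 0.00183 and 0.0467), but at 1 mM neither channel of either probe was well above background, so the size of these differences was not measured. At 5 mM the only limit for Wif1 was at least 2.16-fold over its control. Wnt6 did not pass at 8 or 24 h (adjusted p = 0.0709 and 0.223 in limma), and its control was below the background flag at both concentrations. Wnt11 likewise did not pass at 8 h, at 0.24 with an interval from -0.16 to 0.64. Under the alternatives tried Sfrp2 kept its difference in 19 of 19 at both times, Fzd1 at 8 h in 16 of 19 and Wif1 in 17 of 18, while Fzd2 kept its difference at 3 h in 6 of 19, Wnt5a at 8 h in 4 of 19 and Wnt7a in 7 of 18.

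The response to 5 mM at 24 h was also set against that at 3 h, where 12 of 51 member probes passed, 9 higher and 3 lower at 24 h, against 15.8% of all probes. That number was 7 after each array was centred on its median, 3 (Wif1, Wnt4 and Wnt6) when the 5 mM arrays were fitted alone, and 7 when either array of 5 mM at 24 h was left out. Wnt6, Wnt7a and Wif1 passed as higher at 24 h, but neither channel was well above background at 3 h, so the size of their difference was not measured. The limits at 24 h were at least 2.77-fold over control for Wnt6 and at least 2.16-fold for Wif1. The ratios of Wnt4 and of 1 of the 2 Wnt9a probes were higher by 0.95 and 0.67 on the log2 scale. Both Tcf7 probes were higher, by 1.31 and 0.79. Fzd6 and probe A_52_P552665 of Fzd7 were higher by 0.46 and 0.47.

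Wnt4 and Wnt6 passed under 20 of 20 alternatives, Tcf7 probe A_52_P244711 under 8 and Wnt5a under 6. The 3 that were lower at 24 h were Sfrp2 by -0.74, Wnt5a by -0.53 and Fzd4 by -0.48. Fzd4 had read 0.53 and 0.28 at 3 h and -0.08 and -0.07 at 24 h. Axin2 differed by -0.01, with a 95% interval from -0.65 to 0.64, and Fzd1 by 0.30, with an interval from -0.08 to 0.67. For both of these genes the interval of the change from 3 to 24 h included 0.

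**Figure D3:**
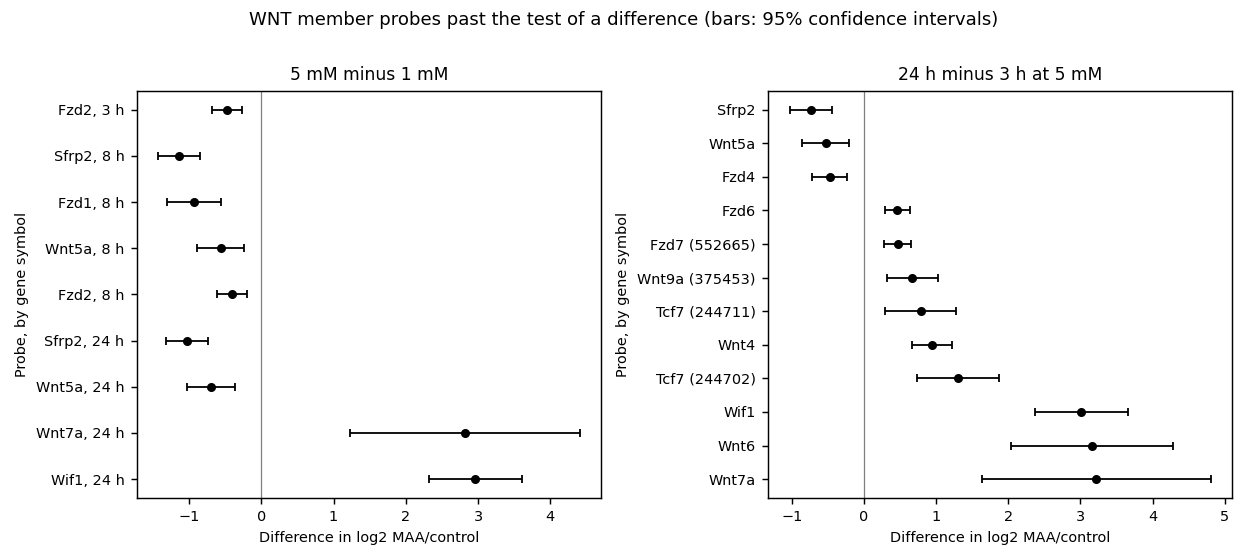
Differences in log2 MAA/control (x axis) of the member probes that passed the test at adjusted p below 0.05, for 5 mM minus 1 mM at each time (left) and for 24 h minus 3 h at 5 mM (right), with bars for 95% confidence intervals. Sfrp2, Fzd1, Fzd2 and Wnt5a lie to the left of 0 and Wif1 and Wnt7a to the right in the left panel. The points for Wif1, Wnt6 and Wnt7a rest on signals not well above background in 1 of the 2 conditions compared, so their positions are not measured sizes.

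The rest of the pathway was read from a list of 81 genes by role, of which 68 had a probe, 97 probes in all. At 5 mM, 3 of these probes rose (3.09%) and 4 fell (4.12%) at 3 h, beside 2.02% and 1.74% of all probes. At 8 h 6 rose (6.19%) and 5 fell (5.15%), beside 3.06% and 2.49%, and at 24 h 5 rose (5.15%) and 0 fell, beside 3.85% and 1.77%. At 1 mM, 1 rose and 1 fell at 3 h (1.03% each), beside 1.32% and 0.627%. At 8 h 3 rose (3.09%) and 0 fell, beside 1.72% and 0.656%, and at 24 h 9 rose (9.28%) and 0 fell, beside 3.26% and 1.41%. Where 0 fell, limma had 13 lower at an unadjusted p below 0.05 at 5 mM for 24 h, 4 at 1 mM for 8 h and 9 at 1 mM for 24 h. The 12 genes called at 5 mM with the largest ratios are described by role.

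Notum, an enzyme that removes the lipid from WNT ligands, rose at both concentrations. It had log2 ratios of 2.52 and 1.69 at 3 h, 2.16 and 3.81 at 8 h, and 2.86 and 3.38 at 24 h at 5 mM, and of 1.22 and 1.31, 2.39 and 1.39, and 2.82 and 2.53 at 1 mM. It was above 0 on all 12 arrays and was called in 5 of the 6 conditions, all except 1 mM at 3 h. Its control was above background on 1 array in all, and at 5 mM and 24 h it was at least 4.72-fold higher (limma adjusted p = 0.00092).

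Rnf43, a ubiquitin ligase that removes Frizzled from the cell surface, read 0.42 and 1.86, 1.22 and 1.96, and 1.94 and 1.58 at 5 mM, and 0.90 and 1.23, 1.02 and 1.58, and 1.87 and 2.16 at 1 mM, for 3, 8 and 24 h. Nkd1, which binds Dishevelled and dampens the signal, read 0.66 and -0.81, 0.63 and 0.19, and 1.64 and 1.32 at 5 mM, and 0.85 and 0.31, 0.95 and 0.37, and 1.93 and 1.96 at 1 mM. Both were called at 24 h at both concentrations, Nkd1 with limma adjusted p = 0.0108 and 0.0104 and Rnf43 with 0.00557 and 0.01. Rnf43 was also called at 5 mM and 8 h, where its signal was not well above background in both channels, so the size there was not measured.

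Kremen2, a receptor for Dkk proteins, and Rspo1, a secreted agonist known for its part in ovary determination, rose at 5 mM and 8 h. Kremen2 read 2.04 and 2.38 there and was at least 2.54-fold higher, and Rspo1 read 1.94 and 2.83 and was at least 3.70-fold higher, with limma adjusted p = 0.00231 and 0.00522. Sox17, which can bind beta-catenin, read 1.31 and 1.42 at 5 mM and 8 h at 1 of its 3 probes (limma adjusted p = 0.000299) and 0.16 and -0.04 at 24 h. These 3 genes shared a call at 8 h and had no call at 3 or 24 h at 5 mM.

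Frat1, a protein that binds GSK3, rose early at probe A_52_P584188, with 1.92 and 1.88 at 3 h, 1.52 and 1.57 at 8 h, and 0.24 and 0.41 at 24 h at 5 mM (limma adjusted p = 1.32e-05 at 3 h). Probe A_51_P119633 of Frat1 read 0.73 and 0.59 at 3 h and was not called. At 1 mM A_52_P584188 read 1.12 and 0.95 at 3 h and was called (limma adjusted p = 0.00102). Its arrays of 5 mM lay above those of 1 mM at 3 and 8 h.

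In the polarity branch, Celsr1 reversed between the ends of the time course. Celsr1, a cadherin of planar cell polarity, read -2.11 and -1.86 at 3 h, 0.94 and 0.89 at 8 h, and 2.86 and 2.87 at 24 h at 5 mM. At 3 h its MAA channel was below the background flag on both arrays, so it was at least 2.40-fold lower (limma adjusted p = 4.16e-05), and at 24 h it was 7.29-fold higher (adjusted p = 8.63e-06). Daam2, a formin that binds Dishevelled, fell at 3 and 8 h with both of its probes, A_51_P328202 at -1.31 and -1.47, then -1.70 and -1.37, and -0.31 and -0.31 at 24 h. At 3 h 1 of the 2 Daam2 probes was called with neither channel well above background. At 8 h only 1 of the 2 had both channels well above it on any array.

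In the list's own group of transcripts known as beta-catenin targets, 3 that were called at 5 mM did not all move the same way. Genes placed under another role are not in this group, among them Axin2, which the pathway also induces and which was above 0 on every array. Ccn4 fell at 3 h (-1.61 and -1.50) and 8 h (-1.54 and -1.32), Id2 fell at 8 h with both probes (-1.24 and -1.36, -1.16 and -1.56), and Ccn5 rose at 24 h (2.14 and 1.97). Their limma adjusted p values were 2.93e-05 for Ccn4 at 3 h, 1.73e-05 and 0.000433 for the Id2 probes and 4.66e-05 for Ccn5. Ccn4 and Ccn5 are secreted matricellular proteins, and Id2 is an inhibitor of DNA binding by helix-loop-helix factors. The 15 probes of this target group had a median log2 ratio of 0.18 at 5 mM and 24 h and of -0.13 at 1 mM and 24 h, beside 0.03 and -0.07 over all probes.

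**Figure D4:**
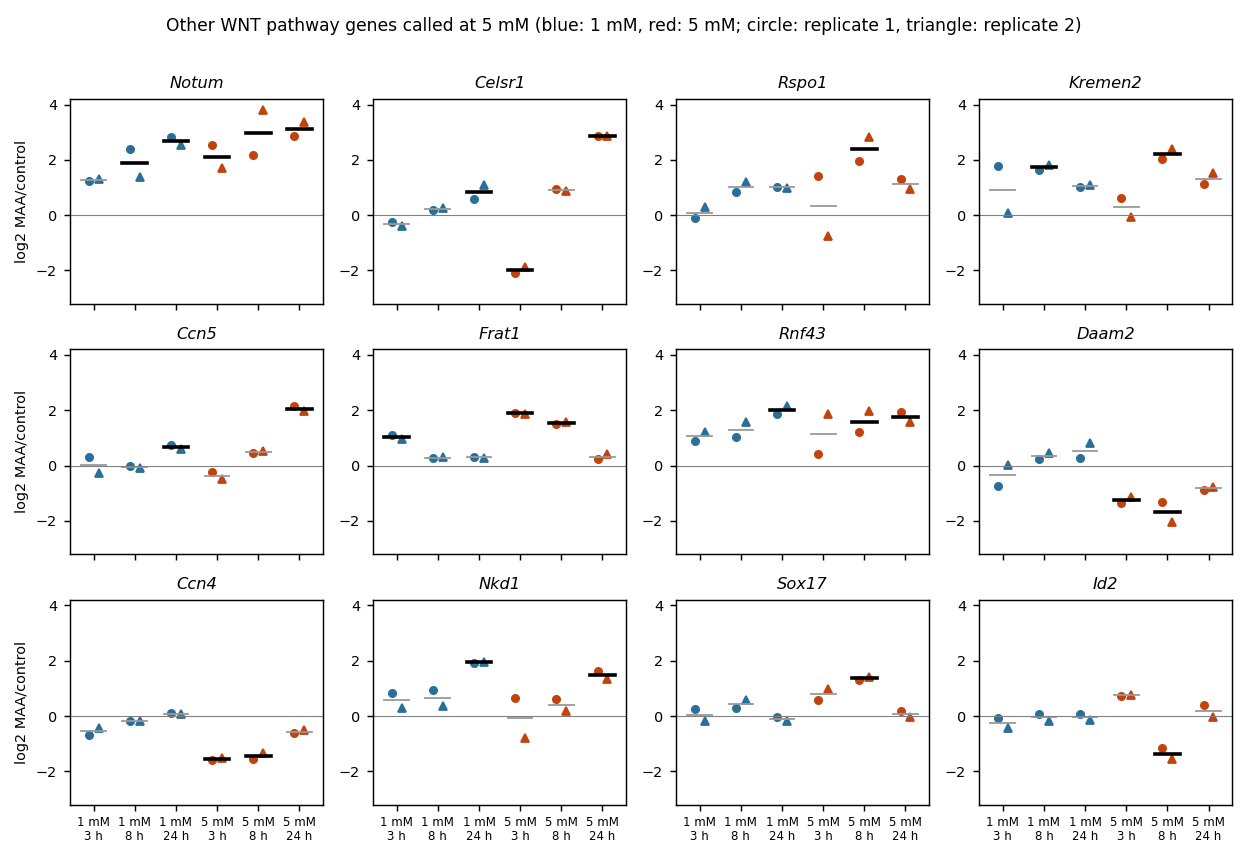
Log2 MAA/control (y axis, same range in all panels) on both arrays of each condition (x axis) for the 12 other pathway genes called at 5 mM with the largest ratios, 1 probe each, with thick black bars for called means. Notum is above 0 on all 12 arrays, Celsr1 passes from -2.11 and -1.86 at 3 h to 2.86 and 2.87 at 24 h at 5 mM, and Nkd1 and Rnf43 are called at 24 h at both concentrations.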

How the data were processed

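RNA of TM3 cells was measured on 12 Agilent mouse arrays of 2 colours, 2 arrays with opposite dyes in each of 6 conditions. Each array carried RNA pooled from 3 cultures against time-matched untreated cells. The deposited intensity values are Agilent Feature Extraction 9.5.3.1 processed signals, background-subtracted and dye-normalised (linear and LOWESS) per the file headers, in which spots near background receive a surrogate value. The deposited log10 ratios of the series table ran as MAA over control, with a median of 0 on every array, and served as an alternative.

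Outlier spots (124 to 208 an array) and control spots were left out, spots of a probe were averaged, and log2 MAA/control was fitted in limma 3.58.1 (R 4.3.3) over all 12 arrays with a coefficient for each condition (6 residual degrees of freedom, to which limma added 1.515; median standard error 0.15). Adjusted p is Benjamini-Hochberg over all 41174 probes, 41173 at 5 mM and 24 h. Calls used the study's thresholds, unadjusted p below 0.005 and over 2-fold (5 mM) or 1.5-fold (1 mM), on limma p-values. The study took its p-values from the Rosetta error model on combined dye swaps, so these calls are not the study's own. Differences were limma contrasts at adjusted p below 0.05. A probe not well above background in all arrays of a group got only a lower limit of its fold, from channels normalised by loess and Aquantile. The number of arrays limits the precision, and p-values measure the spread between pools and arrays, which may be technical. The fit was tested on simulated data.

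Gene symbols came from RefSeq accessions (GRCm38.p6 table), which named 22072 probes. Members with a call were named with every array, and up to 12 other pathway genes called at 5 mM by largest ratio. The members, the pathway list and the markers were chosen with earlier results of these data known. Alternatives were normexp with loess, the deposited ratios, median centring, a filter on dim probes, outlier spots kept, replicate and slide blocks, 1 concentration alone, 1 probe per gene, adjusted p below 0.05 as the call, and each array left out. Each condition had at most 1 array on any of the 3 slides, so within-slide values are the single-array values.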

Additional observations from a re-analysis of the deposited data

Results flagged for a closer look

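The 21 member differences below passed a direct limma contrast at adjusted p below 0.05 over all probes, and are given as log2 differences of MAA/control with no explanation. For 5 mM minus 1 mM, both concentrations were set against untreated cells of their time, which may be the same RNA. Fzd2 differed by -0.47 at 3 h and by -0.40 at 8 h. Sfrp2 differed by -1.13 at 8 h and by -1.03 at 24 h, and Wnt5a by -0.56 and -0.70 at the same times. Fzd1 differed by -0.93 at 8 h. The fitted differences of Wif1 and Wnt7a were 2.96 and 2.82 at 24 h. They are not measured sizes, since neither channel was well above background at 1 mM, and at 5 mM the Wif1 control was not either.

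For 24 h minus 3 h at 5 mM, the fitted differences of Wnt6, Wnt7a and Wif1 were 3.16, 3.22 and 3.01. They are not measured sizes, since neither channel was well above background at 3 h and the controls of Wnt6 and Wif1 were not at 24 h. Wnt4 differed by 0.95 and Wnt9a by 0.67. Tcf7 differed by 1.31 at probe A_52_P244702 and by 0.79 at A_52_P244711. Fzd6 and Fzd7 (A_52_P552665) differed by 0.46 and 0.47. Sfrp2, Wnt5a and Fzd4 differed by -0.74, -0.53 and -0.48.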

How the results depend on the processing

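Of 22 called gene and condition values, the number that kept direction and call was 7 with normexp (offset 50) and loess, 20 with the deposited ratios, 18 after median centring, 19 of the 19 left by the filter on dim probes, 22 with outlier spots kept, 19 with slide as a block, 18 with 1 concentration fitted alone, and 22 with adjusted p below 0.05 as the call. None changed direction. With normexp, members called at 5 mM were 1, 3 and 2 at 3, 8 and 24 h (2, 5 and 7 as reported), other pathway probes 3, 5 and 3 (7, 11 and 5), members at 1 mM 0 at 8 h and 1 at 24 h (2 and 6), and differences between concentrations at 3 h 2 (1). That last count was also 2 with the deposited ratios and with slide as a block, and 3 without dim probes, which left 29 members and 4 called at 5 mM and 24 h. Centring gave 1 member at 5 mM and 3 h, differences between concentrations of 0, 2 and 2 at 3, 8 and 24 h (1, 4 and 4), and 7 between 24 and 3 h (12). With 1 concentration alone, 1 was called at 5 mM and 3 h, 1 at 1 mM and 8 h, and 3 differed between 24 and 3 h. The cause of these changes was not tested.

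Replicate numbers mark dye orientation. Correlations of same-numbered deviations ran from 0.075 to 0.514 with a median of 0.376, and not all were over 0.1, so the numbers were not taken to pair samples. With a replicate block, 22 of 22 calls were kept, and differences between concentrations went to 4 at 3 h and 11 at 24 h.

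Leaving out 1 array leaves a lone array that is assumed to vary like the other conditions. Members called then ranged from 1 to 2, 4 to 6 and 4 to 8 at 5 mM and from 0 to 2, 0 to 2 and 1 to 6 at 1 mM, in order of time. Other pathway probes at 5 mM ranged from 6 to 9, 10 to 12 and 3 to 6, differences between concentrations from 0 to 1, 1 to 4 and 2 to 5, and those between 24 and 3 h from 7 to 12. Members at 5 mM and 24 h fell to 4 without replicate 2 of that condition. Low signal over background limits the members Wnt6, Wnt7a, Wnt10a, Wnt10b, Wif1, Dkk3 and Lef1. Among the other pathway genes it limits Notum, Kremen2, Rspo1, Rnf43 at 5 mM and 8 h, Celsr1 at 5 mM and 3 h, and Daam2.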
